A study of Mus musculus with 16 samples.

Results

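Macrophages that lacked TRAP1 and had been kept in melanoma-conditioned medium were compared with untreated wild-type macrophages. The comparison took 7 of the 16 libraries of the series, chosen by their titles and genotype labels. The 4 libraries of TRAP1 KO TCM came from TRAP1 knockout cells with tumor-conditioned medium (TCM), and the 3 of WT naive from wild-type cells without it. All cells were bone marrow-derived macrophages, grown from mouse marrow for 7 days with recombinant mouse M-CSF at 20 ng/mL. On day 7 they were washed and kept for 24 h more, and for the knockout that step used 70% conditioned medium of the mouse melanoma line YUMM1.7. Values of 3 further libraries, WT TCM (wild-type cells, the same medium), are set beside the comparison as a level between the groups. No group of naive knockout cells was analysed here. The medium and the loss of TRAP1 therefore differ together between the groups, and their parts in any difference below cannot be told apart. The labels give neither the kind of knockout allele nor the strain, sex or age of the mice. Nor do they tell whether the libraries of 1 group stem from different animals or culture wells, and a p-value here is therefore set against a spread that may be technical.

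TRAP1 is the HSP90 chaperone of mitochondria, where it folds client proteins and acts on respiratory chain enzymes. Macrophages take their state from their surroundings. Interferons and bacterial products drive a classical inflammatory program, interleukin 4 an alternative one marked by Arg1, Mrc1 and Chil3, and tumors often produce a mixed state with lactate use, blood vessel growth factors and weak T cell stimulation. Many of these genes carry the repressive mark H3K27me3, which the demethylase JMJD3 (the product of Kdm6b) removes with alpha-ketoglutarate, a metabolite of the mitochondrial tricarboxylic acid cycle.

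Library totals were 20506820 to 22351578 counts in WT naive, 17845920 to 20228057 in TRAP1 KO TCM and 15361604 to 19326128 in WT TCM. On the first principal component, which held 73.1% of the variance, WT naive lay between -30.5 and -30.2, WT TCM between -5.04 and -4.75 and TRAP1 KO TCM between 26.2 and 26.8. The cells carried the defining genes of macrophages. Csf1r, the M-CSF receptor, averaged 1548 CPM (counts relative to a common, normalised library size) in WT naive and 2176 CPM in TRAP1 KO TCM. Adgre1, which encodes F4/80, averaged 3231 and 2477 CPM. Of the 8 macrophage markers, 5 were higher and 3 (Adgre1, Cd68 and Fcgr1) lower in TRAP1 KO TCM. Their sum went from 16346 to 16559 CPM in WT naive to 26501 to 26815 CPM in TRAP1 KO TCM, mostly through Lyz2, the lysozyme gene (8249 and 17972 CPM).

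Markers of other cell types were low but moved with the groups. Neutrophil and precursor markers summed to 51.97 to 56.02 CPM in WT naive and 3.87 to 5.23 CPM in TRAP1 KO TCM, and 4.88 ± 1.06 CPM in WT TCM (SD, n = 3). Of the 10 markers 6 passed the filter on low counts, all of them lower. Ltf, Camp and Mpo averaged at most 0.391 CPM in WT TCM and TRAP1 KO TCM, so they passed it through their level in WT naive. Among the markers not tested, Elane, Ly6g and Retnlg held 20, 2 and 6 counts in WT naive and 2, 0 and 1 in TRAP1 KO TCM. Cxcr2 went the other way, with 5 and 19 counts. Fibroblast and stroma markers summed to 15.2 to 16.2 CPM in WT naive, 5.39 to 7.74 CPM in TRAP1 KO TCM and 0.459 ± 0.0611 CPM in WT TCM. Of the 4 tested members 3 were lower, Col1a1 (6.17 to 1.91 CPM), Col1a2 (5.88 to 2.335 CPM) and Postn (0.915 to 0.149 CPM). Most of the fall in the sum lay in Col1a1 and Col1a2. Postn passed the filter through WT naive, and Col3a1 was not called (1.975 to 1.537 CPM). Of the 4 not tested, Dcn and Pdgfrb went from 0.310 and 0.330 to 0.278 and 0.251 CPM. Lum and Pdgfra went up, from 0.0148 and 0.0782 to 0.0376 and 0.156 CPM. Osteoclast markers fell from 80.7 ± 3.0 to 27.5 ± 1.15 CPM, and monocyte markers rose from 98.5 ± 1.19 to 156 ± 3.13 CPM, the latter through Ccr2. Among sums below 5 CPM, endothelial markers rose from 2.09 ± 0.0941 to 4.14 ± 0.334 CPM and dendritic cell markers fell from 2.23 ± 0.494 to 1.20 ± 0.246 CPM. The only dendritic marker called was Xcr1 (1.02 to 0.240 CPM). Zbtb46 was not called and 5 were not tested. Clec9a, Siglech and Cd209a had lower means in TRAP1 KO TCM, and Zbtb46, Flt3 and Ccr7 higher ones. T and NK cell markers, of which none was tested, fell from 0.759 ± 0.324 to 0.143 ± 0.0721 CPM. Mast cell and basophil markers fell from 1.90 ± 0.130 to 0.154 ± 0.122 CPM, mostly through Kit (1.605 to 0.0624 CPM), their only tested member. All of these were sums at low counts. Each of the sums given in this paragraph so far, and that of the macrophage markers, reached an adjusted p of 0.0371 in a two-sided exact permutation test over the 7 libraries. The smallest possible unadjusted p of that test is 0.0286. The sums of melanoma markers (adjusted p = 0.135), B and plasma cell markers (0.800) and erythroid markers (0.402) did not pass the same exact test. In these bulk libraries fewer cells of a type and less RNA per cell cannot be told apart.

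Trap1 (chromosome 16, 4039971 to 4077827, mm10) was measured first, since it checks the labels. The WT naive libraries held 1481, 1596 and 1424 counts of Trap1, equal to 70.4, 71 and 69.4 CPM. The TRAP1 KO TCM libraries held 1, 1, 1 and 0 counts, and the wild-type libraries with the medium 1217, 1297 and 1108. The ratio of WT naive to TRAP1 KO TCM was 1767, with an exact 95% counting interval of 604 to 8571. Dnase1, which encodes a secreted nuclease and whose end overlaps that of Trap1 on the opposite strand, held 162 counts in WT naive, 62 in WT TCM and 0 in all 4 knockout libraries. Against a floor of 3 counts over the knockout group it was at least 63.6-fold lower.

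Of 14078 genes tested, 7961 (56.5%) differed at an adjusted p under 0.05. There were 3901 genes higher in TRAP1 KO TCM (27.7%) and 4060 lower (28.8%). Most differences were small, with a median absolute log2 fold change of 0.38 among the called genes. At least 2-fold differences were called for 739 genes upward (5.25%) and 712 downward (5.06%), and at least 4-fold ones for 212 and 178. The values of the 2 groups did not overlap for 7715 genes (54.8%). The called share rose with the level, from 28.7% of genes under 1 CPM to 82.7% of those over 100 CPM, where the counts allow small differences to be seen. Of the 6117 genes not called, 4007 had a 95% interval of the fold change that lay wholly within 1.5-fold of equality, and the others were not resolved at this depth. On the way from WT naive to TRAP1 KO TCM, WT TCM differed from WT naive in 5938 genes (42.2%), and TRAP1 KO TCM from WT TCM in 5944 (42.2%). Both of these comparisons share libraries with the main one, so their values are given only side by side.

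**Figure D1:**
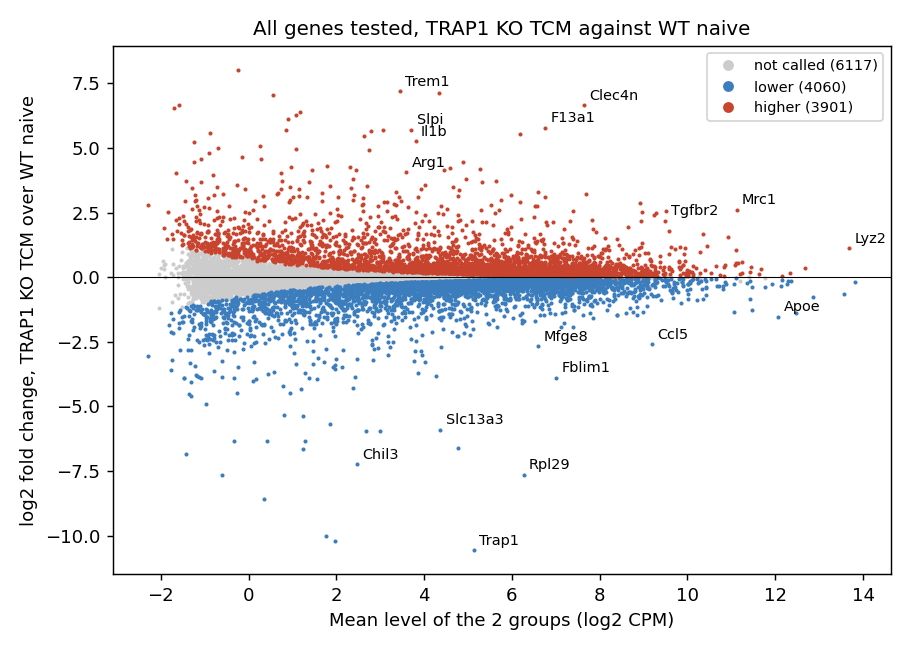
Each point is 1 of the 14078 genes, at its mean level in the 2 groups (x axis, log2 CPM) and its log2 fold change of TRAP1 KO TCM over WT naive (y axis). The 3901 higher (red) and 4060 lower (blue) genes surround the 6117 not called (grey), and named points run from Trap1 at the bottom to Trem1 at the top.

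Outside predicted loci the largest rises were those of Trem1, Clec4n and F13a1. Trem1, a receptor that amplifies inflammatory signals in myeloid cells, measured 0.285, 0.089 and 0.0488 CPM in WT naive and 22.5, 19.5, 21.5 and 23.4 CPM in TRAP1 KO TCM (log2 fold change 7.21 with SE 0.2, adjusted p = 2.62e-52). It was close to undetected in all 3 naive libraries and clear in all 4 of the others. Clec4n, which encodes the fungal sensor Dectin-2, measured 3.85, 3.51 and 4.53 CPM in WT naive and 392, 392, 398 and 408 CPM in TRAP1 KO TCM (log2 fold change 6.65 with SE 0.046, adjusted p = 1.33e-99). F13a1, the A chain of coagulation factor XIII, which cross-links fibrin, measured 3.85, 3.6 and 4.1 CPM and 213, 217, 214 and 204 CPM in the same order (log2 fold change 5.78 with SE 0.051, adjusted p = 2.35e-92). Groups that do not overlap were a condition for naming these genes, so their separation is not a further result.

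Slpi, an inhibitor of neutrophil elastase, went from 0.618, 0.267 and 0.585 CPM to 26, 27, 24.4 and 25.2 CPM (log2 fold change 5.71 with SE 0.15, adjusted p = 5.39e-53). Ednrb, an endothelin receptor, went from 3.76, 4.27 and 4.05 CPM to 74, 74.4, 71 and 74.8 CPM (log2 fold change 4.19 with SE 0.07, adjusted p = 2.03e-69). Both genes were chosen under the same condition. The other genes among the 10 largest rises outside predicted loci were Ppbp, Il1b, Mgl2, Clec10a and Cxcl2, described with their groups. The predicted loci Gm6969, Gm15925, Gm9625 and Gm8730, all annotated as pseudogenes, rose by 7.13, 5.69, 5.64 and 5.54 on the log2 scale, further than Ppbp (5.47).

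**Figure D2:**
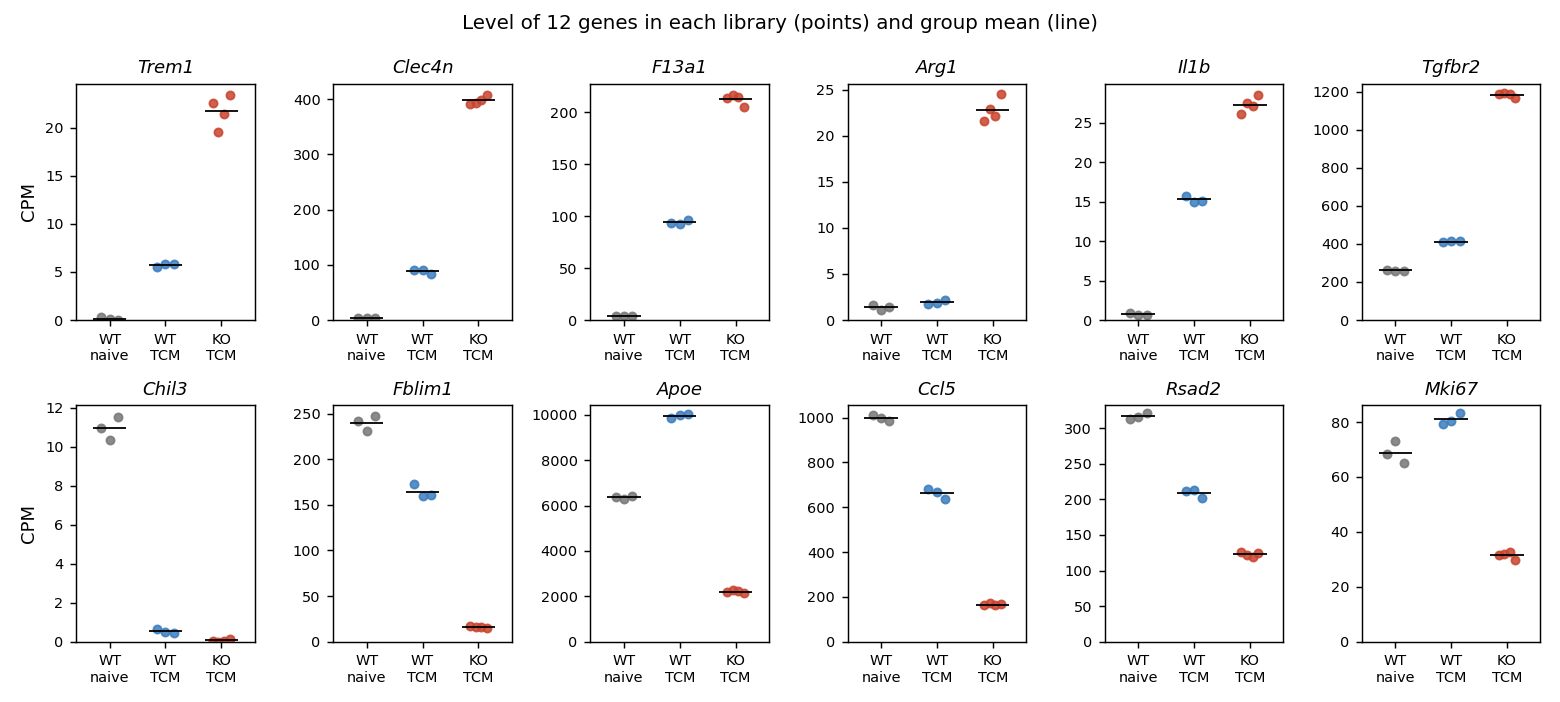
Level of 12 genes (y axes, CPM, from 0) in each library of the 3 groups, with points for libraries and lines for group means. The top row holds genes higher in TRAP1 KO TCM than in WT naive and the bottom row genes lower. In every panel these groups do not overlap, as in 54.8% of all genes tested, and Apoe and Mki67 were higher in WT TCM than in either.

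Among the largest falls was Chil3, which encodes the chitinase-like protein Ym1 of alternatively activated macrophages. It measured 11, 10.4 and 11.6 CPM in WT naive and 0.0556, 0, 0.0516 and 0.168 CPM in TRAP1 KO TCM (log2 fold change -7.23 with SE 0.27, adjusted p = 1.20e-41), and 0.55 CPM on average in WT TCM. Slc13a3, a sodium-coupled carrier of succinate and other dicarboxylates, measured 41.9, 40.5 and 39.9 CPM and 0.445, 0.891, 0.413 and 0.954 CPM (log2 fold change -5.90 with SE 0.12, adjusted p = 6.78e-64). It still averaged 23.4 CPM in WT TCM. Fblim1, which links filamin to cell adhesions, measured 242, 231 and 247 CPM and 17.3, 15.9, 16.1 and 15.5 CPM (log2 fold change -3.89 with SE 0.038, adjusted p = 4.16e-87), with 164 CPM in WT TCM. C77080, an uncharacterised coding gene, went from 54.4 ± 1.94 to 0.55 ± 0.301 CPM, with 42.7 CPM in WT TCM. For these last genes most of the distance on the log2 scale lay between the WT TCM and knockout libraries. Bdh2, a dehydrogenase of ketone and siderophore metabolism, fell from 10.1 ± 0.403 to 0.687 ± 0.0741 CPM and Pou3f1, a POU transcription factor, from 35.8 ± 2.14 to 2.56 ± 0.277 CPM. The granule genes Ngp (15.8 to 0.247 CPM) and Ltf (12.6 to 0.196 CPM), which mark neutrophil precursors, fell with the neutrophil sum given above. Both were already low in WT TCM, at 0.976 and 0.391 CPM, and their part in other results was not tested.

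Gene lists for macrophage biology were described by their counts and medians, beside a median log2 fold change of -0.0033 over all genes tested, of which 27.7% rose and 28.8% fell. Genes of alternative activation had the highest median. Of 17 listed genes 13 passed the filter, and 10 rose, 3 fell and none was left uncalled (median 1.18). Arg1, arginase 1, measured 1.66, 1.07 and 1.37 CPM in WT naive and 21.6, 22.9, 22.1 and 24.5 CPM in TRAP1 KO TCM (log2 fold change 4.06 with SE 0.13, adjusted p = 1.14e-47). In WT TCM it averaged 1.9 CPM, so its level there stayed near the naive one. Mrc1, the mannose receptor CD206, measured 630.0, 633 and 619 CPM and 3859.6, 3812, 3786 and 3832 CPM (log2 fold change 2.61 with SE 0.014, adjusted p = 1.29e-109), with 2691 CPM in WT TCM. The galactose-binding lectins Mgl2 and Clec10a rose from 0.414 ± 0.238 to 13 ± 1.65 CPM and from 2.59 ± 0.257 to 56.7 ± 1.89 CPM. Il4ra, the interleukin 4 receptor chain, rose from 178 ± 2.98 to 808 ± 11.2 CPM (log2 fold change 2.18 with SE 0.019, adjusted p = 2.73e-92). Falls were called for Chil3, for Ccl24, a chemokine that draws eosinophils (log2 fold change -1.51 with SE 0.44), and for Pparg, a lipid-sensing nuclear receptor (49.2 to 13.3 CPM).

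Genes of classical inflammatory activation also rose more often than they fell. Of 20 listed, 16 were tested, and 11 rose, 4 fell and 1 was not called (median 0.98), beside 27.7% of all genes that rose and 28.8% that fell. Il1b, the cytokine interleukin 1 beta, measured 0.903, 0.623 and 0.585 CPM and 26.1, 27.5, 27.1 and 28.6 CPM (log2 fold change 5.27 with SE 0.13, adjusted p = 5.53e-56), and 15.3 CPM in WT TCM. Marco, a scavenger receptor for bacteria and particles, rose from 17.4 ± 0.413 to 129 ± 3.57 CPM, and Acod1, which makes itaconate, from 27.8 ± 2.18 to 92.7 ± 5.86 CPM. Members that fell included interferon-induced chemokines. Cxcl9, a T cell attractant, went from 20.2 ± 0.668 to 5.33 ± 0.614 CPM, its relative Cxcl10 from 20.5 ± 1.58 to 13.8 ± 1.14 CPM, the costimulatory receptor Cd40 from 31.5 ± 1.1 to 10.0 ± 0.767 CPM, and Irf5 changed by -0.16 on the log2 scale. Nos2, the inducible nitric oxide synthase, was not called. Its libraries measured 0.428, 0.623 and 0.634 CPM in WT naive and 0.612, 0.247, 0.464 and 0.842 CPM in TRAP1 KO TCM, overlapping ranges with a 95% interval of -0.88 to 0.72 for the log2 fold change. Il10, whose product restrains inflammation, fell from 5.58 ± 0.0709 to 3.54 ± 0.604 CPM (log2 fold change -0.65 with SE 0.14, adjusted p = 5.49e-05). Among 18 inflammasome and NF-kB genes 12 rose and 5 fell (median 0.32). The sensor gene Nlrp3 rose from 53.6 ± 0.891 to 134 ± 3.67 CPM, the NF-kB regulators Bcl3, Nfkbie and Nfkb2 by 1.19, 1.12 and 0.73 on the log2 scale, while Casp1, the protease that matures interleukin 1 beta, fell from 111 ± 4.65 to 74.4 ± 1.46 CPM.

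Chemokines moved both ways. Of 17 tested, 10 rose, all at least 2-fold, and 5 fell (median 1.09), beside 27.7% of all genes that rose and 5.25% that rose at least 2-fold. The neutrophil attractants of the CXC class rose. Cxcl2 measured 2.42, 1.65 and 3.17 CPM in WT naive and 47.2, 43.5, 45.6 and 45.7 CPM in TRAP1 KO TCM (log2 fold change 4.25 with SE 0.096, adjusted p = 2.23e-57), and Ppbp went from 0.267 ± 0.0647 to 12.1 ± 0.769 CPM. Pf4, platelet factor 4, rose from 190.1 ± 4.53 to 1064 ± 7.02 CPM. In contrast Ccl5, which draws T cells and monocytes, measured 1012, 997 and 986 CPM and 163, 171, 163 and 166 CPM (log2 fold change -2.59 with SE 0.019, adjusted p = 6.89e-89), and 662 CPM in WT TCM. Ccl8 fell from 41 ± 1.72 to 16.3 ± 0.637 CPM and Cxcl14 from 35.3 ± 0.82 to 22.2 ± 1.96 CPM. Of 12 chemokine receptors tested (of 13), 6 rose and 5 fell (median 0.32), beside 27.7% and 28.8% of all genes. The formyl peptide receptors Fpr1 and Fpr2, which sense bacterial peptides, rose from 4.06 ± 0.413 to 46 ± 1.26 CPM and from 10.0 ± 0.937 to 46.1 ± 0.385 CPM, and Ccr1 from 17.9 ± 1.85 to 177 ± 4.12 CPM. Cx3cr1, the fractalkine receptor of resident macrophages, fell from 26.8 ± 2.06 to 3.73 ± 0.823 CPM and Cxcr4 from 55.3 ± 2.96 to 13.6 ± 1.06 CPM.

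Receptors for pathogens and debris moved both ways. Of 14 C-type lectin receptors tested (of 15), 8 rose and 5 fell (median 0.28), beside 27.7% of all genes that rose and 28.8% that fell. Beside Clec4n and Clec10a, Clec4e, the mycobacterial sensor Mincle, rose from 22.4 ± 0.642 to 194 ± 12.3 CPM and Clec5a from 15.8 ± 1.09 to 53.5 ± 1.22 CPM. The falls with the largest fold were in genes of low level, Clec1b (1.25 to 0.173 CPM) and Ly75 (0.531 to 0.185 CPM). Of 12 scavenger receptors tested (of 13), 6 rose and 6 fell (median 0.23). Colec12, a scavenger receptor with a collagen stalk, measured 25.1, 21.8 and 25.3 CPM in WT naive and 164, 166, 154 and 162 CPM in TRAP1 KO TCM (log2 fold change 2.75 with SE 0.041, adjusted p = 1.90e-73), and 19.6 CPM in WT TCM. Cd163, the haemoglobin scavenger, rose from 8.96 ± 0.0825 to 31 ± 0.687 CPM, and Cd5l, a secreted inhibitor of cell death, fell from 730.4 ± 4.53 to 290.1 ± 5.65 CPM.

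Genes for the uptake of dying cells and for complement gave 13 rises and 9 falls among 22 tested (median 0.25), beside 27.7% and 28.8% of all genes. Axl, a receptor for phosphatidylserine through its ligand GAS6, rose from 88.7 ± 2.3 to 249 ± 4.11 CPM. Cfp, which encodes properdin, an activator of the alternative complement pathway, rose from 631 ± 7.39 to 1986 ± 27.6 CPM. Mfge8, a bridge between dying cells and integrins, measured 165, 166 and 169 CPM and 24, 25.6, 26.8 and 29 CPM (log2 fold change -2.66 with SE 0.038, adjusted p = 1.94e-75). Its integrin partner gene Itgav fell from 213 ± 5.87 to 83.3 ± 1.15 CPM. Trem2, a lipid receptor, measured 1042, 1046 and 1056 CPM and 715, 708, 713 and 713 CPM (log2 fold change -0.56 with SE 0.015, adjusted p = 8.00e-53), and Gpnmb went from 8242 ± 98.6 to 3176 ± 31.5 CPM. Spp1, osteopontin, which tumor macrophages often express, rose from 1432 ± 1.9 to 2950.5 ± 81.6 CPM (log2 fold change 1.04 with SE 0.015, adjusted p = 4.94e-60).

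Genes induced by type I interferon were mostly lower. The interferon signal ends at a promoter element with the letters GAAANNGAAA (N is any base). The promoters of 3 members that fell are shown to place this element. The windows come from RefSeq (GRCm38.p6), each 100 bases long, read 5′ to 3′ toward the gene, with matches on either strand in capitals.
Rsad2 chr12:26456518-26456617, minus strand: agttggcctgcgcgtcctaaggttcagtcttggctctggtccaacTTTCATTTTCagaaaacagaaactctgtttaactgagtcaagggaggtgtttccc
Ifit3 chr19:34583362-34583461, plus strand: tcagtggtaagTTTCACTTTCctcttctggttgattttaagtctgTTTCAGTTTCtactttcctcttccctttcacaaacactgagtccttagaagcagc
Isg15 chr4:156200830-156200929, minus strand: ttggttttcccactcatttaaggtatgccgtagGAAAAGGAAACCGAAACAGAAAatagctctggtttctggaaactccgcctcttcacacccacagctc
Their first bases lie 165, 167 and 111 bases before the transcription start of Rsad2, Ifit3 and Isg15. The promoter table covers 250 bases before to 50 bases after a start and held 20 of the 28 interferon-induced genes. A match was present in 11 of these 20, in 8 of the 16 that fell and in 3 of the 4 that rose. It was present in 4.01% of the 9805 tested genes with a promoter. A match describes letters, not a bound factor.

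All 28 interferon-induced genes were tested, and 24 fell and 4 rose (median -0.53), against 28.8% of all genes that fell. Rsad2, the antiviral enzyme viperin, measured 313, 315 and 322 CPM in WT naive and 126, 122, 119 and 124 CPM in TRAP1 KO TCM (log2 fold change -1.37 with SE 0.024, adjusted p = 1.15e-67). The nucleotide kinase Cmpk2 measured 241, 237 and 242 CPM and 97.9, 97.8, 101 and 105 CPM (log2 fold change -1.26 with SE 0.027, adjusted p = 1.36e-60). Ifi44 fell from 138 ± 1.12 to 61.5 ± 2.05 CPM, and Usp18, which removes the ubiquitin-like ISG15 from proteins, from 139 ± 0.414 to 66.5 ± 3.86 CPM. Ifit3, which binds viral RNA complexes, fell from 398 ± 2.17 to 191 ± 4.87 CPM and Isg15 from 201 ± 4.92 to 110.1 ± 2.05 CPM. In every one of these 6 genes the WT TCM mean lay between the groups. The rises were small, 0.28 for Xaf1, 0.11 for the RNA sensor gene Ddx58, 0.07 for the RNA-dependent kinase gene Eif2ak2 and 0.06 for Trim30a on the log2 scale. Without the third WT naive library, or with upper-quartile scaling, 2 rises were called in place of 4. Only 5 of the 28 changed at least 2-fold, all downward, against 5.06% of all genes that fell by as much.

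Genes of antigen presentation fell slightly. Of 13 class I genes 9 fell, 3 rose and 1 was not called (median -0.29), beside 28.8% of all genes that fell and 27.7% that rose. None of the 13 changed at least 2-fold. B2m, the shared light chain, fell from 3944 ± 30.3 to 3035 ± 26.8 CPM, Nlrc5, the class I transactivator, from 156 ± 6.12 to 94.7 ± 1.62 CPM, and the immunoproteasome subunit Psmb10 from 153 ± 3.39 to 117 ± 2.95 CPM. The peptide transporter genes Tap1 and Tap2 rose by 0.05 and 0.15 on the log2 scale. The call of Tap1 was lost without any 1 of 4 libraries (WT naive 1 or 3, TRAP1 KO TCM 2 or 3), and upper-quartile scaling left 1 rise in this list. Of 9 class II genes tested (of 10), 5 fell, 1 rose and 3 were not called (median -0.15). Cd74, the invariant chain, measured 258, 262 and 266 CPM in WT naive and 203, 207, 199.7 and 191 CPM in TRAP1 KO TCM (log2 fold change -0.39 with SE 0.024, adjusted p = 4.88e-26). H2-Ab1, a class II beta chain, measured 70.1, 71.3 and 73.6 CPM and 64.7, 67.4, 63.9 and 62.6 CPM (log2 fold change -0.15 with SE 0.039, adjusted p = 6.64e-04). The small net falls stood beside lower levels in WT TCM, which averaged 111 CPM for Cd74, 38 CPM for H2-Ab1, 18.2 CPM for H2-Aa and 10.8 CPM for H2-Eb1. In TRAP1 KO TCM H2-Aa and H2-Eb1 averaged 43.3 and 28.2 CPM.

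Ligands that hold back or help T cells gave 7 rises and 7 falls among 16 tested of 18 (median -0.03), beside 27.7% and 28.8% of all genes. Cd274, which encodes PD-L1, measured 80.9, 76.1 and 76.8 CPM and 41.3, 41.6, 43 and 43.9 CPM (log2 fold change -0.88 with SE 0.04, adjusted p = 1.44e-35). Lgals3, galectin 3, fell from 3997 ± 46.2 to 1640.3 ± 35.9 CPM. The costimulatory ligands Cd80 and Tnfsf9 rose from 7.53 ± 0.447 to 21 ± 1.5 CPM and from 5.15 ± 0.14 to 14.3 ± 0.285 CPM. Among 16 tested enzymes of arginine, NAD and purine metabolism 9 rose and 2 fell (median 0.40). Cd38, which breaks down NAD, measured 7.75, 9.34 and 8.82 CPM and 27, 29.4, 25.5 and 27.1 CPM (log2 fold change 1.66 with SE 0.083, adjusted p = 1.14e-32), with only 2.52 CPM in WT TCM. Its relative Bst1 rose from 30.5 ± 1.25 to 64.5 ± 0.71 CPM, the adenosine deaminase Ada from 5.12 ± 0.53 to 10.6 ± 0.421 CPM, and the NAD salvage enzyme Nampt fell from 219.7 ± 3.23 to 177 ± 4.43 CPM.

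**Figure D3:**
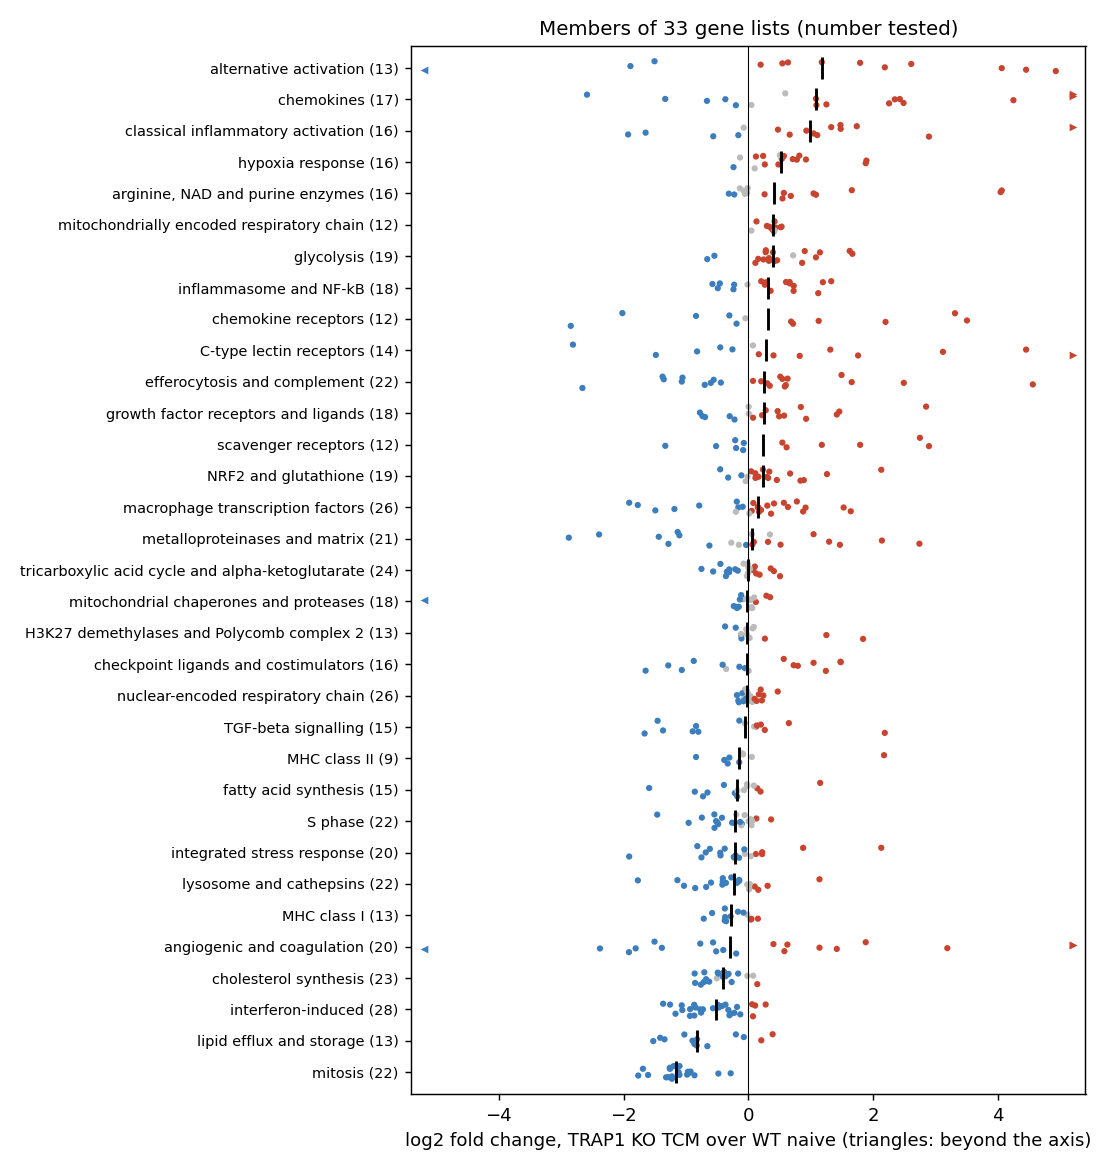
Log2 fold change of TRAP1 KO TCM over WT naive (x axis) for each tested member of 33 gene lists (rows, number tested in brackets), in red where higher, blue where lower and grey where not called; black bars mark list medians. Alternative activation lies at the top (median 1.18) and mitosis at the bottom (median -1.16), where all 22 members are blue.

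Cell division genes were lower throughout the mitosis list. All 22 members fell, 15 of them at least 2-fold (median -1.16), against 5.06% of all genes at that size. Many mitotic genes carry a cell cycle homology region near their start, with the letters TTTGAA, which the DREAM complex reads. The promoters of 3 members that fell are shown with the element in capitals, on either strand, again from RefSeq (GRCm38.p6), 100 bases each.
Ube2c chr2:164769829-164769928, plus strand: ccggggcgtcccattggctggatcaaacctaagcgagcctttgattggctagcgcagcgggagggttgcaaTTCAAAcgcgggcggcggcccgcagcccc
Kif11 chr19:37376282-37376381, plus strand: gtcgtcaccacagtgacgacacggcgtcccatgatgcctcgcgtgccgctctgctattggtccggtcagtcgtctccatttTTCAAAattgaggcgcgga
Mki67 chr7:135716425-135716524, minus strand: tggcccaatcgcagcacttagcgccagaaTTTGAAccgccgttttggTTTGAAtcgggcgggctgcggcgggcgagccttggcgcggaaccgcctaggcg
The windows begin 100 bases before the start for Ube2c and Kif11 and 145 bases before it for Mki67. A match lay in the promoters of 13 of the 18 mitosis genes in the table, and in 14.6% of the tested genes with a promoter.

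Ube2c, an enzyme of the anaphase-promoting complex, measured 11.1, 9.52 and 10.9 CPM in WT naive and 3.0, 3.51, 2.94 and 2.81 CPM in TRAP1 KO TCM (log2 fold change -1.77 with SE 0.12, adjusted p = 9.37e-24). Bub1b, a spindle checkpoint kinase, measured 13.2, 14.7 and 15.4 CPM and 4.06, 5.29, 4.44 and 3.98 CPM (log2 fold change -1.69 with SE 0.1, adjusted p = 4.48e-27), and Kif11, a spindle motor, 20.7, 21.6 and 19 CPM and 5.56, 5.99, 7.27 and 8.03 CPM (log2 fold change -1.61 with SE 0.089, adjusted p = 6.87e-30). Mki67, the proliferation marker Ki-67, measured 68.3, 73 and 65 CPM and 31.8, 32, 32.9 and 29.9 CPM (log2 fold change -1.12 with SE 0.043, adjusted p = 8.55e-41). The groups were apart in all 4 genes, as in 54.8% of all genes tested, and Ube2c, Bub1b and Kif11 were named for the size of their falls. WT TCM averaged 11.6, 18.3, 20.7 and 81 CPM in the same order, at or above the naive mean. Genes of S phase were more mixed, with 13 lower, 2 higher and 7 not called among 22 (median -0.21), beside 28.8% of all genes lower and 27.7% higher. The letters TTTNGCGC of an E2F site were in 5 of their 17 promoters, and in 2.85% of those of all tested genes. Rrm2, a subunit of ribonucleotide reductase, fell from 20.8 ± 1.51 to 10.7 ± 0.817 CPM and the replication factor Cdc45 from 6.88 ± 0.245 to 4.09 ± 0.396 CPM. The helicase subunits Mcm2 and Mcm3 rose from 42.4 ± 2.09 to 54.6 ± 2.07 CPM and from 64.5 ± 2.64 to 70.4 ± 1.02 CPM. Pcna, the replication clamp, fell from 493 ± 3.12 to 179 ± 2.27 CPM, and its count is uncertain because a near-identical pseudogene was counted beside it, as given below.

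Glycolysis genes were mostly higher. Of 19 tested, 16 rose, 2 fell and 1 was not called (median 0.39), against 27.7% of all genes that rose. Slc16a3, the lactate exporter, measured 38.9, 37 and 37.7 CPM in WT naive and 120.4, 118, 123 and 119 CPM in TRAP1 KO TCM (log2 fold change 1.67 with SE 0.036, adjusted p = 1.21e-60). Slc2a1, the glucose transporter GLUT1, rose from 37.1 ± 2.88 to 78.5 ± 2.35 CPM, phosphoglycerate kinase Pgk1 from 296 ± 3.53 to 654 ± 8.87 CPM and the aldolase Aldoc from 9.13 ± 0.895 to 28.1 ± 1.99 CPM. Aldoc averaged 50.8 CPM in WT TCM, above both. The hexokinase gene Hk3 and the regulatory kinase gene Pfkfb3 fell from 593 ± 6.2 to 375 ± 11.9 CPM and from 72.1 ± 3.18 to 49.3 ± 1.86 CPM. Gapdh, which has many pseudogenes, could not be judged from these counts. Its libraries measured 16.3, 8.41 and 20.8 CPM in WT naive and 17.2, 46.8, 17.4 and 16.1 CPM in TRAP1 KO TCM.

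Hypoxia response genes gave 12 rises and 1 fall among 16 tested (median 0.52), beside 27.7% and 28.8% of all genes. Vegfa, the main growth factor for blood vessels, measured 25.6, 27 and 22.7 CPM and 87.9, 92.7, 96.9 and 92.7 CPM (log2 fold change 1.88 with SE 0.043, adjusted p = 6.42e-57), and averaged 109 CPM in WT TCM. Hif1a, the hypoxia factor itself, rose from 79.4 ± 0.971 to 136 ± 4.0 CPM and Pdk1, which holds pyruvate back from mitochondria, from 39 ± 1.26 to 73.8 ± 1.25 CPM. Car9, a carbonic anhydrase, was the fall, from 12.1 ± 0.813 to 10.3 ± 0.631 CPM, and it was not called by DESeq2 or without the first or the second WT naive library. The letters ACGTG, the core that HIF factors read, were in 14 of 19 glycolysis promoters and 12 of 14 hypoxia promoters, and in 29.3% of those of all tested genes.

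Lipid genes were mostly lower. In cholesterol synthesis 19 of 23 tested genes fell, 1 rose and 3 were not called (median -0.41), none at least 2-fold, against 28.8% of all genes that fell. The 1 rise was not called without the fourth TRAP1 KO TCM library. The letters TCACNCCAC of a sterol response element were in 1 of 16 promoters of the list, and in 1.42% of those of all tested genes. Insig1, the sterol sensor, measured 88.9, 94.9 and 87.7 CPM in WT naive and 49.8, 46.9, 53.7 and 48.9 CPM in TRAP1 KO TCM (log2 fold change -0.86 with SE 0.038, adjusted p = 9.36e-36). The pathway enzymes Idi1 and Cyp51 fell by 0.85 and 0.76 on the log2 scale. In WT TCM these 3 genes averaged 99.8, 21 and 71.5 CPM, against naive means of 90.5, 20.6 and 60.5 CPM. In fatty acid synthesis 7 of 15 fell and 3 rose (median -0.18). The desaturases Scd1, Scd2 and Fads2 went from 6.66 ± 0.94 to 2.2 ± 0.347 CPM, from 332 ± 3.63 to 183 ± 10.1 CPM and from 9.37 ± 0.71 to 5.65 ± 0.452 CPM, and Acacb, an acetyl-CoA carboxylase, from 1.24 ± 0.369 to 2.77 ± 0.222 CPM.

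Genes of lipid efflux and storage fell the most of the lipid groups, with 11 of 13 tested lower and 2 higher (median -0.83), beside 28.8% and 27.7% of all genes. Apoe, the lipid carrier that macrophages secrete, measured 6394, 6293 and 6404 CPM in WT naive and 2187, 2279, 2217 and 2159.5 CPM in TRAP1 KO TCM (log2 fold change -1.53 with SE 0.012, adjusted p = 8.01e-72). In WT TCM it averaged 9949.9 CPM, so the knockout libraries were the lowest and those of wild type with the medium the highest. Nr1h3, the oxysterol receptor LXR alpha, fell from 62.3 ± 0.715 to 23.4 ± 0.477 CPM, and averaged 23.6 CPM in WT TCM. Lpl, lipoprotein lipase, measured 3072, 3026 and 3102 CPM and 1183, 1187, 1255 and 1204 CPM (log2 fold change -1.34 with SE 0.016, adjusted p = 4.43e-37). Of the cholesterol exporters Abcg1 fell from 267 ± 2.6 to 131 ± 2.82 CPM and Abca1 rose from 663 ± 9.47 to 867 ± 13.4 CPM.

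In the lists of respiratory chain genes and mitochondrial chaperones no gene other than Trap1 changed 2-fold. Genes encoded in mitochondrial DNA took 1.15% to 1.18% of the counts in WT naive, 1.42% to 1.45% in TRAP1 KO TCM and 1.26% ± 0.0154 in WT TCM (SD, n = 3), with an adjusted p of 0.0371 in the exact permutation test. Of the 12 tested respiratory chain genes encoded there 10 rose and 2 were not called (median 0.40). mt-Nd5, a complex I subunit, measured 954, 936 and 962 CPM and 1289, 1278, 1272 and 1294 CPM (log2 fold change 0.43 with SE 0.015, adjusted p = 2.21e-45), and mt-Nd4 509.5, 518 and 533 CPM and 688, 696, 692 and 705 CPM (log2 fold change 0.42 with SE 0.017, adjusted p = 9.34e-39). Their nuclear-encoded partners gave 7 rises, 6 falls and 13 genes not called among 26, with log2 fold changes from -0.18 to 0.47 (median -0.03), near the shares of all genes that rose (27.7%) and fell (28.8%). Under upper-quartile scaling 11 of them fell. Sdhd, a membrane anchor of succinate dehydrogenase, rose from 87.8 ± 3.23 to 122 ± 1.19 CPM. Of 18 mitochondrial chaperones and proteases 8 fell, Trap1 included, and 3 rose. The protease genes Clpp and Yme1l1 rose from 16.5 ± 2.07 to 21.1 ± 0.781 CPM and from 98.3 ± 2.0 to 120.0 ± 1.53 CPM, and Oma1 fell from 21.7 ± 1.17 to 18.4 ± 1.37 CPM.

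Enzymes of the tricarboxylic acid cycle and alpha-ketoglutarate gave 7 rises, 9 falls and 8 genes not called among 24 (median -0.01), beside 27.7% of all genes that rose and 28.8% that fell. Fh1, fumarase, rose from 42.2 ± 1.88 to 59.9 ± 1.42 CPM and Dlst, part of the alpha-ketoglutarate dehydrogenase, from 97.3 ± 1.07 to 129 ± 4.12 CPM. Psat1 and Gpt2, transaminases that yield alpha-ketoglutarate, fell from 23.4 ± 0.763 to 13.9 ± 0.78 CPM and from 18.5 ± 1.06 to 12.5 ± 0.819 CPM. Among 13 genes of H3K27 demethylation and Polycomb complex 2, 3 rose, 4 fell and 6 were not called, near the same shares of all genes. Kdm6b, which encodes JMJD3, measured 4.94, 4.8 and 5.22 CPM in WT naive, 11.2, 13.9 and 9.43 CPM in WT TCM and 18, 17.8, 18.1 and 17.3 CPM in TRAP1 KO TCM (log2 fold change 1.84 with SE 0.1, adjusted p = 8.86e-30). The naive and knockout libraries did not overlap, as in 54.8% of all genes tested, and the wild-type libraries with the medium lay between them. Jarid2, a Polycomb cofactor, rose from 41.8 ± 2.45 to 99.3 ± 2.47 CPM, and the methyltransferase Ezh2 fell from 17.2 ± 2.07 to 13.3 ± 1.4 CPM. Kdm6a, the related demethylase UTX, was not called, with a 95% interval of -0.04 to 0.17 for its log2 fold change.

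The 2 receptor chains for TGF-beta changed in opposite directions. Tgfbr2, the chain that binds the ligand, measured 264, 258 and 259 CPM in WT naive and 1186, 1195, 1184 and 1165 CPM in TRAP1 KO TCM (log2 fold change 2.18 with SE 0.018, adjusted p = 1.65e-95). Tgfbr1, the signalling chain, measured 208, 206 and 199 CPM and 76, 78.1, 78.5 and 83.5 CPM (log2 fold change -1.37 with SE 0.03, adjusted p = 2.25e-59). The ligand genes Tgfb1 and Tgfb3 rose by 0.26 and 0.65 on the log2 scale. The induced genes Tgfbi, a matrix protein, and Smad7, a feedback inhibitor, fell from 495 ± 7.42 to 180.3 ± 3.84 CPM and from 7.16 ± 0.773 to 3.85 ± 0.80 CPM. Over the 15 tested members of 18, 6 rose and 7 fell (median -0.06), beside 27.7% of all genes that rose and 28.8% that fell.

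Angiogenic and coagulation genes gave 9 rises and 11 falls among 20 tested of 23 (median -0.30). Of them 6 rose and 6 fell at least 2-fold, beside 5.25% and 5.06% of all genes. Beside F13a1 and Vegfa, thrombospondin 1 (Thbs1), an inhibitor of vessel growth, went from 12.6 ± 0.211 to 114 ± 1.75 CPM, with 192 CPM in WT TCM. Plaur, the urokinase receptor, rose from 23.6 ± 2.14 to 51.9 ± 1.87 CPM. Flt1, a receptor for VEGF, fell from 4.37, 5.47 and 4.68 CPM in WT naive to 0.0556, 0, 0.0516 and 0.112 CPM in TRAP1 KO TCM (log2 fold change -6.35 with SE 0.36, adjusted p = 5.16e-29). Of 21 metalloproteinase and matrix genes 9 rose and 8 fell (median 0.06), beside 27.7% of all genes that rose and 28.8% that fell. Mmp9, a gelatinase, measured 23.8, 27 and 23 CPM and 159, 164, 159 and 176 CPM (log2 fold change 2.74 with SE 0.044, adjusted p = 1.15e-42), and Mmp14, which is bound to the membrane, 43.7, 45.6 and 45.9 CPM and 202, 196, 196 and 199.9 CPM (log2 fold change 2.14 with SE 0.034, adjusted p = 9.42e-71). Timp1, an inhibitor of metalloproteinases that acts poorly on the membrane-bound Mmp14, fell from 21.8 ± 0.708 to 4.16 ± 0.591 CPM, and stood lower still in WT TCM at 1.33 CPM.

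Among 22 lysosomal genes 14 fell and 4 rose (median -0.23), beside 28.8% of all genes that fell and 27.7% that rose. Atp6v0d2, a subunit of the proton pump that also marks osteoclasts, fell from 116 ± 3.53 to 34 ± 2.41 CPM and Ctsk, an osteoclast protease, from 6.74 ± 0.301 to 3.28 ± 0.557 CPM, beside the lower osteoclast sum above, whose part was not tested. Ctsc, which activates granule proteases, rose from 613 ± 4.5 to 1349 ± 11.2 CPM. In the integrated stress response 13 of 20 tested fell and 5 rose (median -0.22). The stress factor genes Atf3 and Ddit3 fell from 266 ± 4.69 to 70.7 ± 4.23 CPM and from 70.8 ± 2.23 to 44.1 ± 2.48 CPM, and Cebpb rose from 96.7 ± 2.93 to 177 ± 1.96 CPM. In the antioxidant NRF2 and glutathione list 14 of 19 rose and 3 fell (median 0.23). Nfe2l2, which encodes NRF2, rose from 182 ± 3.16 to 325 ± 6.56 CPM, and the mitochondrial superoxide dismutase Sod2 from 76 ± 2.73 to 141 ± 4.37 CPM, while the cytosolic Sod1 fell from 114 ± 1.5 to 83.4 ± 0.923 CPM.

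Of 26 macrophage transcription factors tested (of 28), 16 rose and 8 fell (median 0.15), beside 27.7% of all genes that rose and 28.8% that fell. Klf2, a restraint on inflammatory genes, rose from 17.3 ± 0.753 to 54 ± 3.48 CPM and the immediate-early gene Egr1 from 2.74 ± 0.368 to 7.91 ± 1.21 CPM. Epas1, which encodes HIF-2 alpha, fell from 10.2 ± 0.844 to 2.98 ± 0.589 CPM and Bhlhe40 from 10.7 ± 0.113 to 3.8 ± 0.402 CPM. Of 18 growth factors and receptors tested (of 20), 11 rose and 5 fell (median 0.25). Sema3c, a secreted guidance protein, measured 1.76, 1.25 and 1.41 CPM in WT naive and 12.6, 9.4, 9.65 and 10.8 CPM in TRAP1 KO TCM (log2 fold change 2.85 with SE 0.16, adjusted p = 8.14e-29), and 0.482 CPM in WT TCM. Plxnd1, a semaphorin receptor, rose from 179.8 ± 3.12 to 341 ± 5.32 CPM, and Hgf fell from 17.1 ± 0.695 to 9.99 ± 0.707 CPM.

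The net difference between naive wild type and treated knockout can add up along WT TCM or cancel. Genes with the largest steps in each pair of directions were chosen for those steps, so they are described without a test. Clec4n, Trem1, Slpi, Ppbp, Cxcl2 and Ednrb were higher at each step, with Slpi at 0.49 CPM in the naive, 2.05 CPM in the treated wild-type and 25.6 CPM in the knockout libraries. Ngp, Pou3f1, Nanos1, Ifit1bl1 and Mfge8 were lower at each. Nanos1, a translational repressor, stood at 26.8, 8.81 and 2.05 CPM. Scd1, Fads2, Rnase6, Mid1 and Rapsn peaked in WT TCM. Rapsn, which clusters acetylcholine receptors at muscle synapses, measured 4.94, 5.07 and 4.68 CPM in WT naive, 10.7, 11.5 and 12.1 CPM in WT TCM and 5.34, 6.33, 6.5 and 6.96 CPM in TRAP1 KO TCM. Its net log2 fold change was 0.36 (95% interval 0.12 to 0.60).

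Ly6a, Cd38, Ccl8, Timp1, Nptx1 and Gstp1 were lowest in WT TCM. Ly6a, which encodes the surface protein Sca-1, measured 191, 195 and 196 CPM in WT naive, 43.5, 46.4 and 41.9 CPM in WT TCM and 252, 252, 247 and 256 CPM in TRAP1 KO TCM. Its net rise was 0.38 on the log2 scale (SE 0.025), small beside the dip between. Gstp1, a glutathione transferase, measured 6.7, 8.41 and 7.75 CPM, 2.82, 2.45 and 3.01 CPM and 9.23, 8.36, 9.75 and 6.96 CPM in the same order, and its net change was not called (95% interval -0.05 to 0.39). A few genes passed the test only over the whole distance, with neither step called. Of these Rgl3 had the largest fold, from 6.19 ± 0.695 to 4.03 ± 0.73 CPM with 5.08 ± 0.566 CPM in WT TCM.

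**Figure D4:**
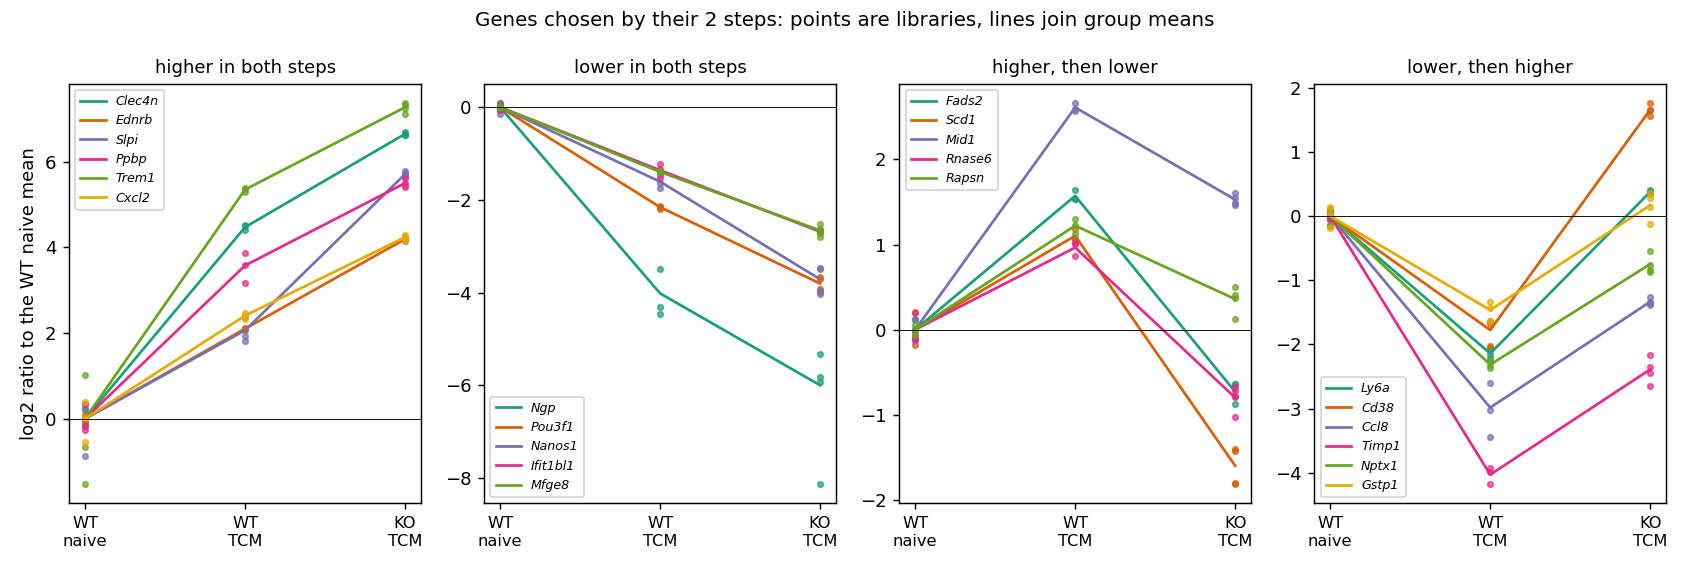
Log2 ratio of each library to the WT naive mean (y axes) for 22 genes in 4 panels by the direction of their 2 steps, with lines through the means of the 3 groups (x axes); libraries at 0 are not drawn. Trem1 and Clec4n rise along both steps, while Rapsn and Gstp1 return close to their naive level.

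Some coding genes changed while a near-identical processed pseudogene changed the other way, and reads of such pairs cannot be assigned with certainty. Neither read assignment nor a difference between the mice at these loci was tested. Psmb5, a catalytic subunit of the proteasome, went from 81.6 to 34.9 CPM, and Gm3375 (98.9% identical to it over 796 bases) from 2.32 to 41.5 CPM, so their sum moved only from 83.9 ± 2.09 to 76.4 ± 2.85 CPM. Ndufs5, a complex I subunit, went from 36.0 to 15.2 CPM while its match BC002163 went from 1.91 to 18.6 CPM, and the sum from 37.9 ± 1.13 to 33.9 ± 2.07 CPM. Cox7a2l went from 120.3 to 84.7 CPM, Gm6969 from 0.279 to 40.2 CPM and their sum from 120.6 ± 4.39 to 124.9 ± 0.536 CPM. Rplp0, a ribosomal protein gene, went from 776 to 620.1 CPM with Gm8730 from 3.04 to 142 CPM. The pair Pcna and Pcna-ps2 summed to 497 ± 3.21 CPM in WT naive and 237 ± 1.22 CPM in TRAP1 KO TCM, where Pcna-ps2 took 57.8 CPM, so the sum was lower too. In WT TCM the pseudogenes of these 5 pairs stayed between 0.543 and 3.58 CPM.

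**Figure D5:**
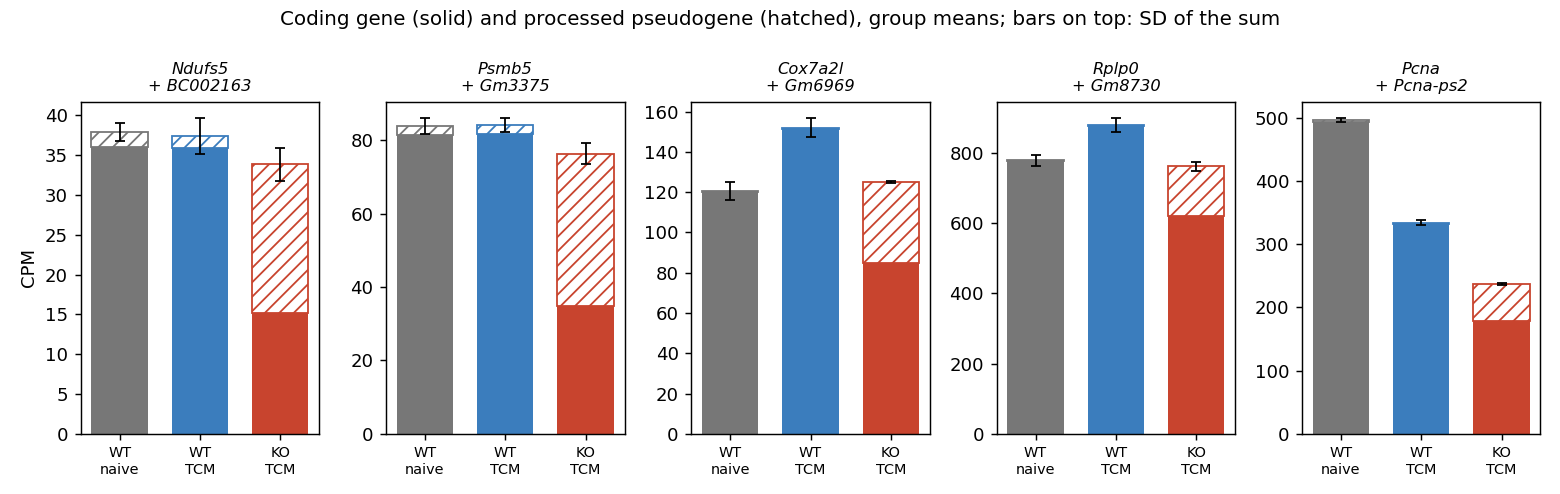
Mean level (y axes, CPM, from 0) of 5 coding genes (solid bars) and of a processed pseudogene of each (hatched, stacked on top) in each of the 3 groups, with the SD of the sum as error bars. The hatched part is visible in TRAP1 KO TCM in all 5 panels, and the sum of Pcna and Pcna-ps2 falls from 497 to 237 CPM.

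Rpl29, a ribosomal protein gene with many pseudogenes, had the largest fall after Trap1 among the genes named by size. It measured 153, 149 and 157 CPM in WT naive, 181, 172 and 182 CPM in WT TCM and 0.556, 0.841, 0.877 and 0.73 CPM in TRAP1 KO TCM (log2 fold change -7.65 with SE 0.069, adjusted p = 1.10e-91). The 51 counted pseudogenes that match it summed to 29.8 ± 2.18 CPM in WT naive and 59.1 ± 0.912 CPM in TRAP1 KO TCM. The total of gene and pseudogenes was 183 ± 1.64 CPM and 59.9 ± 1.05 CPM, so the counted pseudogenes held only part of the difference, and neither the part of read assignment nor that of a difference between the mice was tested.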

How the data were processed

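RNA from 16 macrophage libraries had been sequenced after removal of ribosomal RNA, with a TruSeq Stranded kit on an Illumina HiSeq, per the labels' protocols. HISAT, StringTie, Bowtie2 and RSEM, and the build mm10, are listed without roles, per the submitters' processing notes. The counting step, its strand setting and its treatment of reads shared by near-identical genes were not given in the sources used here, so values of genes with close copies or overlapping partners are uncertain. The authors deposited whole-number counts for 54532 gene identifiers per library, and 54495 of them had a symbol in GENCODE M21. The 37 others held at most 0.0036% of a library's counts.

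Counts of the 3 groups were fitted together in edgeR (4.0.16, R 4.3.3), with TMM scaling, filterByExpr (minimum 10) and robust quasi-likelihood tests. P-values were adjusted over 14078 genes by Benjamini-Hochberg. The spread of each gene was estimated over 10 libraries (7 residual degrees of freedom) and drawn toward that of other genes (median of 79.2 prior degrees of freedom). The p-values thus rest mostly on spread shared across genes, with a common coefficient of variation beyond counting noise of 2.74%. Calls required an adjusted p below 0.05. Fold changes are log2 ratios of TRAP1 KO TCM over WT naive with their fitted SE and 95% intervals. CPM values use TMM-scaled totals, and values after ± are SDs over the 3 naive or 4 knockout libraries. CPM carries no gene length, so levels were not compared between genes. The 13 single values were tested by two-sided exact permutation of the group labels (35 arrangements) and adjusted together. Counting intervals and floors cover counting error only.

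The comparison, the 33 gene lists and the markers were chosen with earlier results of these data known. Named genes were 14 fixed genes and the 10 largest called changes in each direction. The latter needed a mean of at least 5 CPM, groups that do not overlap, and a symbol that is no predicted or unnamed locus. Added to these were up to 4 called members of each list with the largest change and up to 3 against the list's direction. Genes were also named by their steps through WT TCM. A few genes that this rule selected are not reported here. Other genes, such as Il4ra, Ifit3, Isg15, Trim30a, Irf5, Flt1, Kdm6a, Gapdh, Dnase1 and pseudogenes, were named after their values were seen. Alternatives were RLE and upper-quartile scaling, no filter or a minimum of 50 counts, other sets of libraries, a replicate block, DESeq2 (1.42.0), limma-voom (limma 3.58.1) and leaving out each library. The fit was tested on simulated data. Libraries of a group differed from each other beyond sampling noise (chi-square per degree of freedom of 1.74 to 2.24), so none was treated as a copy of another. This check cannot tell separate animals from technical replicates, because it compares the counts only with sampling noise. Pseudogenes were matched to coding transcripts with BLAST.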

Additional observations from a re-analysis of the deposited data

Results flagged for a closer look

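Among 225 sets of 4 knockout values checked for a library that stands apart from the other 3 (Dixon's criterion at 95%), 7 met it (3.11%), and chance gives about 1 in 20. The highest library stood apart for Spp1, at 3072 CPM against 2904 to 2921 in the others, for Clec10a, at 59.52 CPM against 55.56 to 55.94, and for Bhlhe40, at 4.403 CPM against 3.559 to 3.663. The lowest stood apart for Hif1a, at 129.9 CPM against 137.7 to 138.1, and for Tgfb3, at 1.781 CPM against 2.526 to 2.58. Ltf was at 0 CPM in 1 library against 0.2474 to 0.278, and Trap1 at 0 against 0.04948 to 0.05561, where 1 count makes the difference for Trap1.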

How the results depend on the processing

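Calls held their direction under all 19 alternatives, with no reversal among the genes called. The number of called genes ranged from 7110 to 8080 around 7961, with 7187 by DESeq2, and from 7393 to 8080 when any one library was left out. Only the minimum of 50 counts moved a total by over 1.5 times, since it tests fewer genes of low level. It left 862 genes called at least 2-fold, 448 higher and 414 lower, against 1451, 739 and 712. Of the values of named genes under the alternatives, 3990 kept their side of the threshold and 27 lost it, for Eif2ak2, Tap1, H2-D1, Car9, Stard4, Tgfb3 and Ctsf. Of the counts within lists 17 moved and 1237 did not. The interferon-induced rises went from 4 to 2 and the class I rises from 3 to 1 at their lowest, and upper-quartile scaling, which shifted the median of all genes to -0.0209, gave 11 falls in the nuclear-encoded respiratory chain in place of 6. Naive and knockout libraries share replicate numbers. Deviations from the group mean had correlations of 0.0189, -0.0147 and 0.00904 for the same number, and of -0.0464 to 0.0367 for different numbers. No pairing was seen, but deviations this small cannot show that the samples are unpaired. A fit with the replicate number as a block called 7622 genes. Depth limits genes under 1 CPM, of which 28.7% were called.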

Other observations

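Variable segments of the T cell receptor alpha locus, which macrophages are not known for expressing, were counted in the wild-type libraries and were at or near 0 counts in TRAP1 KO TCM. Trav13-4-dv7 (chromosome 14, 53757356 to 53757921, mm10) held 500 counts in WT naive, 178 in WT TCM and 0 in the 4 knockout libraries, and Trav14-3 (53763173 to 53763694) held 433, 101 and 0. Against a floor of 3 counts over the knockout group these were at least 196-fold and 170-fold lower. Trav14d-3-dv8 held 101 counts in WT naive and 1 in TRAP1 KO TCM, a ratio of 119 with an exact counting interval of 20.9 to 4744. The T cell marker genes Cd3e and Cd3g held 6 and 8 counts over the naive libraries and 3 and 5 over the knockout ones. The sum of 6 T and NK cell markers fell as well, from 0.759 to 0.143 CPM (adjusted p = 0.0371 by an exact permutation test), with Cd8a at 11 and 1 counts and Nkg7 at 15 and 0. In WT TCM, which held 178 and 101 counts of Trav13-4-dv7 and Trav14-3, this sum was lower than in the knockout, at 0.0364 CPM. The part of T cells in the segment counts was not tested. On chromosome 14 as a whole, 15.1% of 470 tested genes were called and changed at least 2-fold, against 8.04% to 12.8% on the other autosomes.

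Among other pseudogene pairs, Gm6768 went from 15.7 to 69.6 CPM while its coding match Ncoa4 went from 69.8 to 76.5 CPM, and Gm14292 from 2.45 to 10.4 CPM while Wtap stayed between 76.3 and 79.0 CPM. Ighm, the constant region of immunoglobulin M, rose from 2.08 to 15.8 CPM.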
